A study of Homo sapiens with 18 samples.

Results

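Knockdown of TRIM24 in LNCaP cells kept in dihydrotestosterone was described here across 13607 genes. LNCaP is an androgen-responsive line of human prostate cancer cells, and dihydrotestosterone (DHT) is the most potent natural androgen. Its arrays were picked by their sample labels and are 6 of the series' 18: 3 of LNCaP with siRNA against TRIM24 and 10 nM DHT, set against 3 of LNCaP with control siRNA and 10 nM DHT. A further 12 arrays, also 3 per group, gave the context: LNCaP with TRIM24 siRNA or control siRNA and vehicle (ethanol), and LNCaP-abl, a derivative that grows without androgen, with TRIM24 siRNA or control siRNA and vehicle. All cells were transfected for 48 h, LNCaP was starved of hormone for 48 h in charcoal-stripped serum, and treatment lasted 24 h. Total RNA of each sample was read on 1 one-colour Affymetrix array. The labels name only 1 TRIM24 siRNA reagent, so loss of TRIM24 and any other effect of that siRNA cannot be told apart. Nothing in the labels makes the 3 replicates of a group separate cultures, and a p-value here covers only array-to-array spread, part of which could be technical.

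TRIM24, also known as TIF1-alpha, is a nuclear protein of the tripartite motif family. It reads histone marks through a plant homeodomain finger and a bromodomain, can attach ubiquitin to other proteins through its RING domain, and binds nuclear hormone receptors as a cofactor. In prostate cells androgen turns on secretory genes such as the kallikreins and turns off another set, and it also drives proliferation. The comparison asks which genes depend on TRIM24 while androgen is present.

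The unit throughout is the deposited log2 expression value of a probe set, and a fold change is the mean of the TRIM24 siRNA arrays minus the mean of the control siRNA arrays, with its standard error (SE). A gene was called when limma's adjusted p was under 0.05. With DHT, 5468 of 13607 genes were called, 40.2% of those tested, of which 2644 rose (19.4%) and 2824 fell (20.8%). These shares of all tested genes are the baseline for the list counts with DHT below. The typical called change was small, with a median absolute log2 fold change of 0.26, and 106 called genes (0.779%) moved by 2-fold or more, 24 of them higher and 82 lower. Averaging all probe sets of a gene instead of taking the brightest left 50 such genes. For 49.7% of the genes the 3 TRIM24 siRNA arrays and the 3 control arrays did not overlap.

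Array medians of the 6 arrays lay between 5.83 and 5.88, and the arrays within a group had correlations of 0.997 to 0.998 over all probe sets. RNA quality moved with the siRNA. The GAPDH control probe sets read 0.63 ± 0.01 higher at the 3' end than at the 5' end with TRIM24 siRNA and 0.56 ± 0.01 with control siRNA, and those of ACTB 2.19 ± 0.07 and 1.85 ± 0.09 (log2 differences, SD, n = 3 arrays each, no overlap for either). With this difference as a covariate 2669 genes were called, 1195 up and 1474 down. Since the difference separates the siRNA groups, that fit cannot tell it well apart from the siRNA. A call lost there does not by itself mean a smaller change. STEAP4 went from -0.38 to -0.61 and E2F8 from -0.41 to -0.11, and both calls were lost. Genes named below that then missed the threshold are identified where they stand. Some small changes named below also missed it under other settings: TUBGCP3, CKS2, SLC2A1, ALDOC, NCL, SLC7A5 and IFIT5 with no filter on low values (adjusted p = 0.052 to 0.0743), TUBGCP3, CKS2, E2F8, SLC2A1, ALDOC and NCL in a fit to the 12 LNCaP arrays (0.0513 to 0.069), and TUBGCP3, CKS2, CDKN1A, ALDOC, TRIB1, FKBP4, CTBP2 and CBX7 in a fit to the 6 DHT arrays (0.058 to 0.127). The same held for TUBGCP3, SLC2A1 and CTBP2 with median centring (0.0565 to 0.0977), CDKN1A and ALDOC with quantile normalization (0.0717 and 0.122), SLC2A1 and IFIT5 with array weights (0.0506 and 0.0575) or a replicate block (0.0526 and 0.0501), TUBGCP3 with that block (0.0614), and RPTOR with an intensity trend and robust variances (0.0555). Of the genes named below, the mean was under the low-value filter of 5.88 with TRIM24 siRNA for ASPM, CCNA2, CENPF, DIXDC1, KIF20A and NAALADL2. With control siRNA it was under it for ACSL4, CCL20, CENPQ, PLOD2, POLR3G and STYXL2, and in both groups for BRIP1, E2F8, KIF23 and PHLDB2. The fold changes of these genes are set against a dim level. A gene dim in a single group may have passed the filter through the arrays of the other. Luminal markers were bright in both groups: the mean over 11 luminal prostate markers was 11.62 to 11.65 on the TRIM24 siRNA arrays and 11.54 to 11.57 on the control arrays. KRT8 and KRT18, the keratins of luminal cells, averaged 11.59 and 12.98 with TRIM24 siRNA and 11.63 and 13.20 with control siRNA. Fewer markers of other cell types passed the low-value filter: 3 of 7 measured basal markers, 4 of 10 neuroendocrine and 5 of 12 leukocyte and endothelial markers. Fibroblast and mesenchymal markers were an exception, with 11 of 16 measured markers passing. Their mean was 6.71 to 6.74 on the TRIM24 siRNA arrays and 6.72 to 6.75 on the control arrays. PTPRC, the pan-leukocyte antigen, averaged 3.29 with TRIM24 siRNA and 3.30 with control siRNA. KRT5, the basal keratin, averaged 5.57 with TRIM24 siRNA and 5.62 with control siRNA. Of 11 tested fibroblast and mesenchymal markers SNAI2, ACTA2 and COL5A1 rose by 0.52, 0.41 and 0.26, and FN1, fibronectin, fell by 0.46. Under the RNA quality covariate SNAI2, ACTA2, COL5A1 and KRT18 missed the threshold (adjusted p = 0.32, 0.12, 0.449 and 0.145), and COL5A1 also with its probe sets averaged (0.11, adjusted p = 0.139). The part of these markers in the results below was not tested.

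TRIM24 itself checked the labels. It read 8.09, 8.04 and 7.89 on the TRIM24 siRNA arrays with DHT, against 10.12, 10.13 and 10.17 on the control siRNA arrays. The groups did not overlap, and the log2 fold change of -2.14 ± 0.05 (SE, n = 3 per group, adjusted p = 1.82e-13) left 22.7% of the control signal. This is the brightest of 4 probe sets; the other 3 gave -2.17, -1.69 and -0.13, the last 2 of them dim, at means of 5.40 and 5.63 in control cells. TRIM24 fell by a similar amount with vehicle (-1.99) and in LNCaP-abl (-2.08). Its relatives in the TIF1 family, which share the B-box and bromodomain layout, did not pass the test. TRIM28, the corepressor of zinc finger proteins, had a log2 fold change of 0.05 ± 0.05, TRIM33, a regulator of SMAD signalling, -0.06 ± 0.04, and TRIM66 0.21 ± 0.12. TRIM33 was called in the opposite direction, at 0.43, when its most variable probe set was used, and TRIM66 was called (adjusted p = 0.0451) in a fit to the 12 LNCaP arrays alone.

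**Figure D1:**
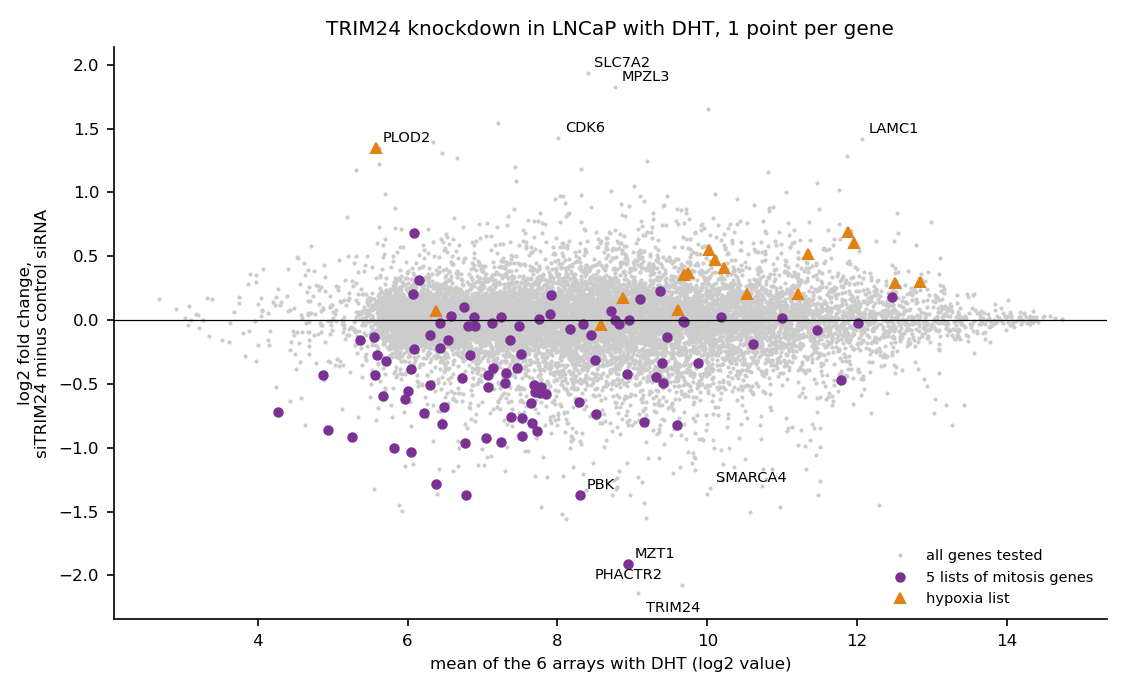
Each point is 1 tested gene, with the mean of the 6 DHT arrays (log2 value) on the x axis and the log2 fold change of TRIM24 siRNA minus control siRNA on the y axis; purple circles are the tested members of 5 mitosis lists and orange triangles those of the hypoxia list. Most mitosis genes lie below 0 and most hypoxia genes above it, while TRIM24 at -2.14 and SLC7A2 at 1.93 mark the ends of the range.

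Many genes that carry out mitosis fell. Mitosis is run by kinases that switch the cell into division, kinesin motors and spindle proteins that move the chromosomes, kinetochores that tie chromosomes to the spindle, and a ubiquitin ligase, the anaphase promoting complex, that ends it. Many of these genes are switched on together late in the cell cycle through promoter elements read by the DREAM and MuvB complexes (the CHR element) and by the factor NF-Y (the CCAAT box). The 5 lists hold 95 tested genes, of which 57 fell, 4 rose and 34 did not pass the test. Of all genes tested 20.8% fell and 19.4% rose. The promoters of these genes are the known meeting point of their control. Among the promoters considered for printing, which left out that of the kinase PBK, those of the 5 largest falls that hold both motifs are shown. They run from upstream of the start to just inside the gene, from RefSeq (GRCh38.p14), 5' to 3' on the strand of the gene. Capitals mark TTTGAA or TTCGAA (CHR) and CCAAT, on either strand, and no match to one overlapped a match to the other. They lie at chr13:72727580-72727879, minus strand (MZT1), chr14:55191536-55191835, minus strand (DLGAP5), chr1:214602945-214603244, plus strand (CENPF), chr1:197146620-197146919, minus strand (ASPM), chr1:43358731-43359030, plus strand (CDC20).
MZT1: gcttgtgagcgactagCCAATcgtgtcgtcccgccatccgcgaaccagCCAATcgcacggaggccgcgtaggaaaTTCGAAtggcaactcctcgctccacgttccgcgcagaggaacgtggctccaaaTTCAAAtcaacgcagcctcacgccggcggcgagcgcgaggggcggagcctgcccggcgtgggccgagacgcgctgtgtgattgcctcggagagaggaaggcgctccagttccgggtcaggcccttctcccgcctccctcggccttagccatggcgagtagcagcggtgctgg
DLGAP5: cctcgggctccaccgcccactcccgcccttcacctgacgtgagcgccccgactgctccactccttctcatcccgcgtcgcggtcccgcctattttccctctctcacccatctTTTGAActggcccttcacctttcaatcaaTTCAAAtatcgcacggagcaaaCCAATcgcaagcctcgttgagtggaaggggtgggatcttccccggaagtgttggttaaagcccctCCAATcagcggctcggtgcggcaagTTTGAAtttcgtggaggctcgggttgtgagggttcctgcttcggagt
CENPF: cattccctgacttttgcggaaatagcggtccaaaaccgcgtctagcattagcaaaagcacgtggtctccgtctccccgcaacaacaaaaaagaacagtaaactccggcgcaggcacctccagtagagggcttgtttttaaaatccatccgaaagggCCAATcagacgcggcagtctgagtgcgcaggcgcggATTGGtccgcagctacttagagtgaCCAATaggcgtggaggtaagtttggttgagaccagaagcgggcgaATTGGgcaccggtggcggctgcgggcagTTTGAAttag
ASPM: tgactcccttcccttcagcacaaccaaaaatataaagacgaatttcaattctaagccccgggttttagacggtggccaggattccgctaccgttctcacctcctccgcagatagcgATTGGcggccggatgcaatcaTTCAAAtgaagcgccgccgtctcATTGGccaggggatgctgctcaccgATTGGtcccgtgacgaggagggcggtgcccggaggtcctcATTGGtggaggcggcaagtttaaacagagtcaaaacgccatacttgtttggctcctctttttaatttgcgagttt
CDC20: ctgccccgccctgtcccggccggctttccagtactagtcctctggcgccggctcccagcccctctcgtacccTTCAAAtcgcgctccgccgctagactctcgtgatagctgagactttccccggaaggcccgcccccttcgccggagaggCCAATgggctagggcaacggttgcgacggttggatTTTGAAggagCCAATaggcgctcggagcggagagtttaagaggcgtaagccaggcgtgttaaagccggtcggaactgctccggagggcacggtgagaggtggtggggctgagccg
A promoter was found for 47 of the 57 genes that fell, and 30 of the 47 (63.8%) held a CHR, 36 (76.6%) a CCAAT box and 24 (51.1%) both. Among the members that did not pass the test, 14 of 30 promoters (46.7%) held a CHR, 19 (63.3%) a CCAAT box and 11 (36.7%) both. Of the promoters of all tested genes, 11.2% held a CHR, 36.6% a CCAAT box and 4.75% both. None of the 3 promoters of the members that rose held a CHR. The MZT1 stretch overlaps that of BORA (chr13:72727673-72727972, plus strand), which also holds 2 CHR and 2 CCAAT matches. BORA, another member of these lists, did not pass the test (log2 fold change 0.20). A match is a description of the letters, not a site in use.

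Among the mitotic kinases and their regulators 12 of 19 fell and 1 rose, with a median log2 fold change of -0.43, against 0.01 for all genes. PBK, a mitotic kinase, read 7.60, 7.62 and 7.63 on the TRIM24 siRNA arrays, against 9.10, 8.90 and 8.95 on the control arrays. NEK2, a kinase of centrosome separation, read 6.87, 6.74 and 6.72 against 7.76, 7.68 and 7.73 in control cells. BIRC5, the survivin subunit of the chromosomal passenger complex, read 7.23, 7.29 and 7.37 against 8.23, 8.07 and 8.20 in control cells. In all 3 genes the highest TRIM24 siRNA array lay below the lowest control array. The log2 fold changes were -1.37 ± 0.05 for PBK, -0.95 ± 0.08 for NEK2 and -0.87 ± 0.05 for BIRC5, at adjusted p of 4.05e-12, 1.26e-07 and 1.45e-09, and averaging its probe sets put BIRC5 at -0.59. TPX2, which activates Aurora A on the spindle, fell by 0.81, AURKA, Aurora A itself, by 0.50, and CDK1, the kinase that starts mitosis, by 0.45. WEE1, the kinase that holds CDK1 inactive, was the member that rose, by 0.23 ± 0.03, and missed the threshold when its probe sets were averaged (0.09, adjusted p = 0.228). Of the mitotic kinesins 8 of 11 fell and none rose, with a median of -0.41. KIF20A, a motor of cytokinesis, read 5.61, 5.42 and 5.55 with TRIM24 siRNA and 6.59, 6.50 and 6.57 with control siRNA, a log2 fold change of -1.03 ± 0.04 (adjusted p = 2.86e-11) without overlap. KIF4A, which compacts chromosomes, fell by 0.68 and KIF23, a motor of the central spindle, by 0.72. In the fit with the RNA quality covariate 3 kinesins were called lower, and KIF23 missed the threshold (adjusted p = 0.0645).

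Of the kinetochore and centromere genes 17 of 25 fell and 1 rose (median -0.42). CENPF, a large protein of the outer kinetochore, read 5.62, 5.68 and 5.91 on the TRIM24 siRNA arrays and 7.07, 6.90 and 7.09 on the control arrays, a log2 fold change of -1.28 ± 0.08 (adjusted p = 2.99e-09). NDC80, which binds microtubules, fell by 0.97 and CENPH, a subunit of the inner kinetochore, fell by 0.92. CENPQ, another inner kinetochore subunit, moved the other way, at 6.33, 6.45 and 6.48 with TRIM24 siRNA against 5.82, 5.68 and 5.72 with control siRNA, a rise of 0.68 ± 0.07 (adjusted p = 5.15e-07) in which the arrays did not overlap. The anaphase promoting complex was split: 6 of 16 members fell and 1 rose, against 20.8% and 19.4% of all genes, with a median of -0.07. CDC20, the activator of the complex, fell by 0.91 ± 0.06, PTTG1, the securin that holds sister chromatids together, by 0.82 ± 0.04, and UBE2C, the ubiquitin-conjugating enzyme that feeds the complex, by 0.57 ± 0.04. Of the core subunits CDC23 fell by 0.80 ± 0.04, and ANAPC13 rose by 0.18 ± 0.04, a call lost with the RNA quality covariate (adjusted p = 0.281). ANAPC7 fell by 0.13, a call not examined under other settings. The core subunits ANAPC4, ANAPC5, ANAPC10, ANAPC11, CDC16 and CDC27 did not pass the test (-0.03 to 0.03). With probe sets averaged CENPF was at -0.61 and CDC23 at -0.38.

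Of the genes of the spindle and of cytokinesis 14 of 24 fell and 1 rose (median -0.31). MZT1, a small subunit that recruits the gamma-tubulin ring complex, had the largest fall of these lists. It read 8.11, 7.94 and 7.92 with TRIM24 siRNA, against 9.87, 9.90 and 9.93 with control siRNA, which left 26.6% of the control signal (log2 fold change -1.91 ± 0.06, adjusted p = 3.18e-12). DLGAP5, a stabiliser of spindle microtubules, read 6.25, 6.12 and 5.92 against 7.54, 7.32 and 7.54 in control cells, a log2 fold change of -1.37 ± 0.07. ASPM, a protein of the spindle poles, fell by 1.01 and PRC1, which bundles the central spindle, by 0.76. None of these 4 genes overlapped between the groups. TUBGCP3, a subunit of the gamma-tubulin complex, rose by 0.17 ± 0.06, although its arrays overlapped. That call was lost without TRIM24 siRNA replicate 1 or 2 or control replicate 1 or 2 (adjusted p = 0.115 to 0.151) and with the RNA quality covariate (0.226), and TUBGCP3 was at -0.02 with its probe sets averaged. The second MZT1 probe set was dim and moved by -0.10, so that averaging put MZT1 at -1.01, and averaging put ASPM at -0.56.

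**Figure D2:**
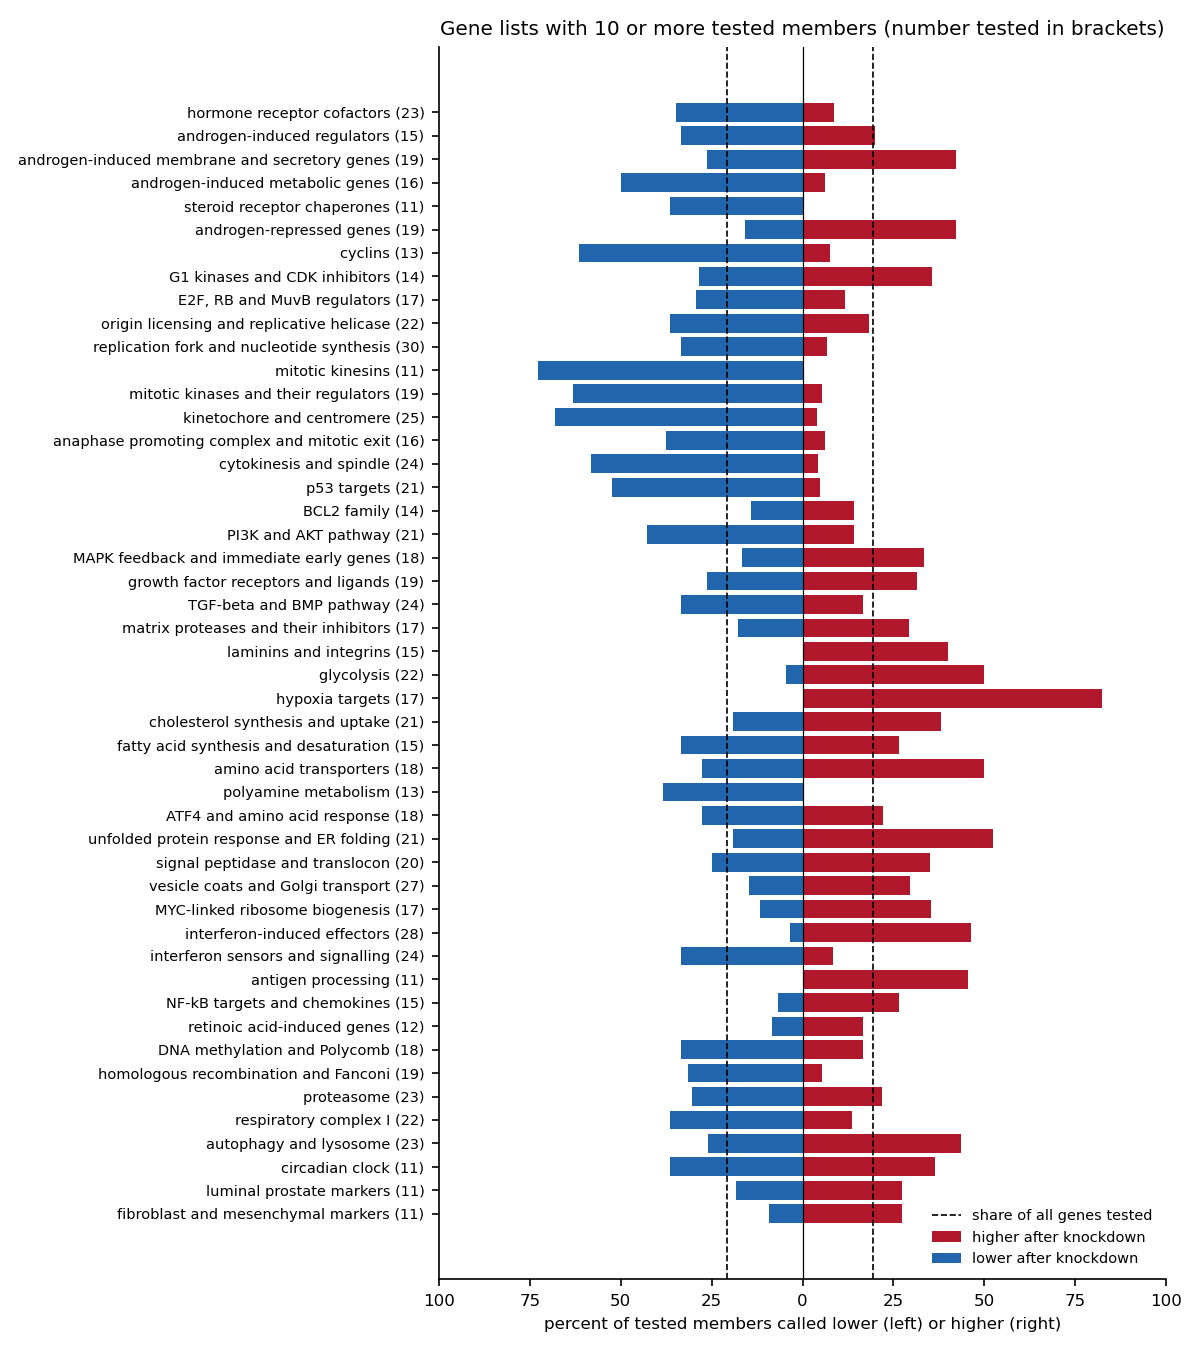
Bars give the percent of each list's tested members that were called higher (right) or lower (left) with TRIM24 siRNA than with control siRNA in LNCaP with DHT, and dashed lines give the share of all tested genes, 19.4% up and 20.8% down. The kinetochore, kinesin, mitotic kinase, cyclin and spindle lists reach far left of the line, and the hypoxia list, with 14 of 17 members higher, farthest right.

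Among the cyclins 8 of 13 fell and 1 rose, with a median of -0.34. CCNA2, cyclin A2, which acts in S and G2 phase, read 5.63, 5.60 and 5.32 on the TRIM24 siRNA arrays and 6.54, 6.58 and 6.79 on the control arrays. CCND1, cyclin D1, which carries growth signals into G1, read 9.27, 9.28 and 9.34 against 10.34, 10.31 and 10.47 in control cells. Neither gene overlapped, and the log2 fold changes were -1.12 ± 0.11 and -1.08 ± 0.05 (adjusted p = 4.78e-07 and 4.12e-11). The mitotic cyclins CCNB2 and CCNB1 fell by 0.89 and 0.59, with CCNB2 at -0.30 when its probe sets were averaged. CCNE2, a cyclin of the G1/S transition, fell by 0.67, and CCNK, a cyclin of transcription, was the member that rose, by 0.17. The list of G1 kinases and CDK inhibitors was split, with 5 of 14 genes higher and 4 lower. CDK6, the D-type cyclin's partner, read 8.68, 8.80 and 8.69 with TRIM24 siRNA and 7.21, 7.28 and 7.41 with control siRNA, a rise of 1.42 ± 0.08 (adjusted p = 1.82e-09) to 268.5% of the control signal. Its relative CDK4 rose by 0.31 ± 0.04 and CDK2, the partner of cyclins E and A, by 0.54 ± 0.06. The list's other rises were CKS1B (0.27) and SKP2 (0.19), both parts of the ligase that removes CDK inhibitors. CDC25A, the phosphatase that activates CDKs at G1/S, fell by 0.92 ± 0.06, and CDKN2A, CKS2 and CDKN1A fell by 0.45, 0.14 and 0.12. The call of CDKN1A, the inhibitor p21, did not hold with the RNA quality covariate (adjusted p = 0.481) or without TRIM24 siRNA replicate 1 or 3 or control replicate 2 (0.066, 0.0564 and 0.0725). SKP2 missed the threshold without TRIM24 siRNA replicate 2 or 3 (0.06 and 0.0552), CDKN2A without TRIM24 siRNA replicate 1 or 2 or control replicate 1 or 3 (0.0521 to 0.0848), and CKS2 without any 1 array other than control replicate 2 (0.0549 to 0.154). Under the RNA quality covariate CKS1B, SKP2 and CKS2 missed it too (0.454, 0.236 and 0.175). With probe sets averaged CDK6 was at 0.71 and CDK2 at 0.26, since several of the 7 CDK6 probe sets are dim, and the call of SKP2 was lost (0.05, adjusted p = 0.355). CDKN2A was at -1.43 with its most variable probe set and at -1.06 with the covariate, and CCNK at 0.27 with the covariate.

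Genes of DNA replication were mixed. Of the E2F, RB and MuvB regulators 5 of 17 fell and 2 rose (median -0.10). LIN52, a subunit shared by the DREAM and MuvB complexes, read 7.45, 7.53 and 7.56 with TRIM24 siRNA and 8.47, 8.26 and 8.22 with control siRNA, a log2 fold change of -0.81 ± 0.06 (adjusted p = 5.61e-08). E2F5, a repressor of this pathway, fell by 0.58 ± 0.04 and FOXM1, the activator of late cell cycle genes, by 0.57 ± 0.09, while E2F8 and TFDP1 fell by 0.41 and 0.20. RBL2, the pocket protein p130, rose by 0.31 and TFDP2, a partner of E2F, by 0.20. E2F1, the main activator of S phase genes, was at -0.11 ± 0.06 and did not pass (adjusted p = 0.158). Of 22 genes of origin licensing and the replicative helicase 8 fell and 4 rose, with a median of -0.09. Of 30 genes of the replication fork and of nucleotide synthesis 10 fell and 2 rose, with a median of -0.07. TYMS, thymidylate synthase, read 8.90, 8.92 and 8.93 against 9.86, 9.75 and 9.78 in control cells, a log2 fold change of -0.88 ± 0.04 (adjusted p = 1.95e-10) with no overlap. The subunits of ribonucleotide reductase, RRM1 and RRM2, fell by 0.48 and 0.54, and UHRF1, which carries DNA methylation through replication, by 0.55. FEN1, the flap endonuclease, and RPA2, a subunit of the single-strand binding protein, rose by 0.21 and 0.23. The call of E2F8 was lost without TRIM24 siRNA replicate 1 or 3 or control replicate 1 or 2 (adjusted p = 0.0533 to 0.15). With the RNA quality covariate FOXM1, RBL2, FEN1 and RPA2 missed the threshold (adjusted p = 0.0664, 0.429, 0.066 and 0.281), as did E2F8, TFDP1 and TFDP2 (0.815, 0.11 and 0.449), and 5 genes of the fork and nucleotide list were called lower. With probe sets averaged TFDP1 and TFDP2 lost their calls (-0.07 and 0.09, adjusted p = 0.195 and 0.105) and E2F5 was at -0.37. With the most variable probe set TFDP2 lost its call (0.095, adjusted p = 0.491) and RRM2 was at -0.83.

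Most targets of the hypoxia response rose. These genes are switched on when oxygen is low, through HIF factors that bind the letters ACGTG or GCGTG, and they encode collagen-modifying enzymes, regulators of mitochondria and enzymes of glycolysis. Of 17 tested members 14 rose and none fell, with a median log2 fold change of 0.35; SLC2A1 was the call that was lost without any 1 of the 6 arrays. The promoters of the collagen hydroxylases PLOD2 (chr3:146161135-146161434, minus strand) and P4HA1 (chr10:73096817-73097116, minus strand), the 2 largest rises of the list, follow from RefSeq (GRCh38.p14), 5' to 3' on the strand of the gene, with ACGTG and GCGTG on either strand in capitals.
PLOD2: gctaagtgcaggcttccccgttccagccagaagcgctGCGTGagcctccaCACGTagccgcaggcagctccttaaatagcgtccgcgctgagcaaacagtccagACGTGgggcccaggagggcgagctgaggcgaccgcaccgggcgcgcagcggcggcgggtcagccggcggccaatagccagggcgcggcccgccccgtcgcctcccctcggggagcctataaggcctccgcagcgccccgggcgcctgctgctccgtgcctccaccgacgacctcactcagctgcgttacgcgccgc
P4HA1: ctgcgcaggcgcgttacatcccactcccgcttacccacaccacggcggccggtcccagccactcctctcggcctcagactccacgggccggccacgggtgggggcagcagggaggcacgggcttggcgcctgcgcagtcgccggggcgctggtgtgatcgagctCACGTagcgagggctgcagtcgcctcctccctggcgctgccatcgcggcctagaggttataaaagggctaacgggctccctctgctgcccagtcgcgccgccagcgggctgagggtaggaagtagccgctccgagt
These letters occurred in 9 of the 11 promoters found for the members that rose (81.8%), in 2 of the 3 found for the members that did not pass (66.7%), and in 61.6% of the promoters of all tested genes.

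PLOD2 and PLOD1 are lysyl hydroxylases and P4HA1 and P4HA2 prolyl hydroxylases of collagen. PLOD2 read 6.46, 6.23 and 6.08 on the TRIM24 siRNA arrays with DHT, against 4.87, 4.96 and 4.90 on the control arrays. P4HA1 read 12.20, 12.24 and 12.23 against 11.57, 11.51 and 11.52 in control cells. P4HA2 read 10.27, 10.29 and 10.32 against 9.74, 9.74 and 9.75 in control cells. No array of one group reached the range of the other in these genes, nor in PLOD1. The rises were 1.35 ± 0.12 for PLOD2 (adjusted p = 2.13e-07), 0.69 ± 0.04 for P4HA1 (3.7e-10), 0.55 ± 0.03 for P4HA2 (3.12e-09) and 0.47 ± 0.04 for PLOD1 (6.51e-08). The more variable PLOD2 probe set gave 2.08. The mean level of the one used, 4.91 in control cells, was below the filter value of 5.88. PLOD2 may thus have passed the filter only through the TRIM24 siRNA arrays with DHT, where it was high. Averaging probe sets put P4HA1 at 0.40 and P4HA2 at 0.31. BNIP3L and BNIP3, receptors that direct mitochondria to autophagy, rose by 0.60 and 0.30, VEGFA, the angiogenic growth factor, by 0.51, and MXI1, an antagonist of MYC, by 0.41, with VEGFA at 0.32 when averaged.

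In glycolysis 11 of 22 genes rose, 1 fell and the median was 0.10. PDK1, which keeps pyruvate out of the mitochondria, read 10.06, 10.03 and 10.00 with TRIM24 siRNA and 9.20, 9.05 and 9.21 with control siRNA. HK2, the inducible hexokinase, read 10.29, 10.33 and 10.32 against 9.59, 9.55 and 9.62 in control cells. LDHA, which makes lactate, read 13.20, 13.32 and 13.28 against 12.92, 12.89 and 12.92 in control cells. The 3 genes did not overlap between the groups, and they rose by 0.87 ± 0.07, 0.72 ± 0.05 and 0.36 ± 0.03 (adjusted p = 6.14e-08, 1.35e-08 and 3.29e-07). PFKFB3, the activator of phosphofructokinase, rose by 0.42 and PFKP, the platelet isoform of phosphofructokinase, by 0.32. SLC2A1, the glucose transporter GLUT1, rose by 0.17 ± 0.06, a call lost with the RNA quality covariate (adjusted p = 0.625) and without any 1 of the 6 arrays (adjusted p = 0.0625 to 0.122). ALDOC, an aldolase, was the member that fell, by 0.10, a call lost without TRIM24 siRNA replicate 1 or 2 or control replicate 1 or 2 (adjusted p = 0.0722 to 0.177) and with the RNA quality covariate (0.272). The count of rises depended on the setting: it was 6 with the RNA quality covariate, 7 with median-centred arrays and 7 without TRIM24 siRNA replicate 3. Averaging probe sets put HK2 at 0.29 and PFKP at 0.13.

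In LNCaP with vehicle, where 38.5% of all genes were called (20.5% up and 18% down), 10 of the 17 hypoxia genes rose and 2 fell, with a median of 0.13. PLOD2 had a log2 fold change of -0.26 with vehicle, P4HA1 0.19, PDK1 0.42, HK2 0.15 and LDHA -0.11. The difference between the knockdown changes with DHT and with vehicle passed the test for PLOD2 (1.61 ± 0.17, adjusted p = 3.19e-05), P4HA1 (0.50 ± 0.05), PDK1 (0.46 ± 0.10), HK2 (0.57 ± 0.07, and 0.34 when averaged) and LDHA (0.47 ± 0.05). P4HA2 also passed at 0.23 ± 0.05, but not when its probe sets were averaged (0.08, adjusted p = 0.478). This difference was called higher with DHT for 12 of the 17 hypoxia genes and 6 of the 22 glycolysis genes, and lower for none of either list; of all genes 5.38% were called higher and 5.7% lower. BNIP3L rose in both settings, by 0.60 with DHT and 0.67 with vehicle. In LNCaP-abl PDK1 was at -0.14, HK2 fell by 0.40 and LDHA fell by 0.36.

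**Figure D3:**
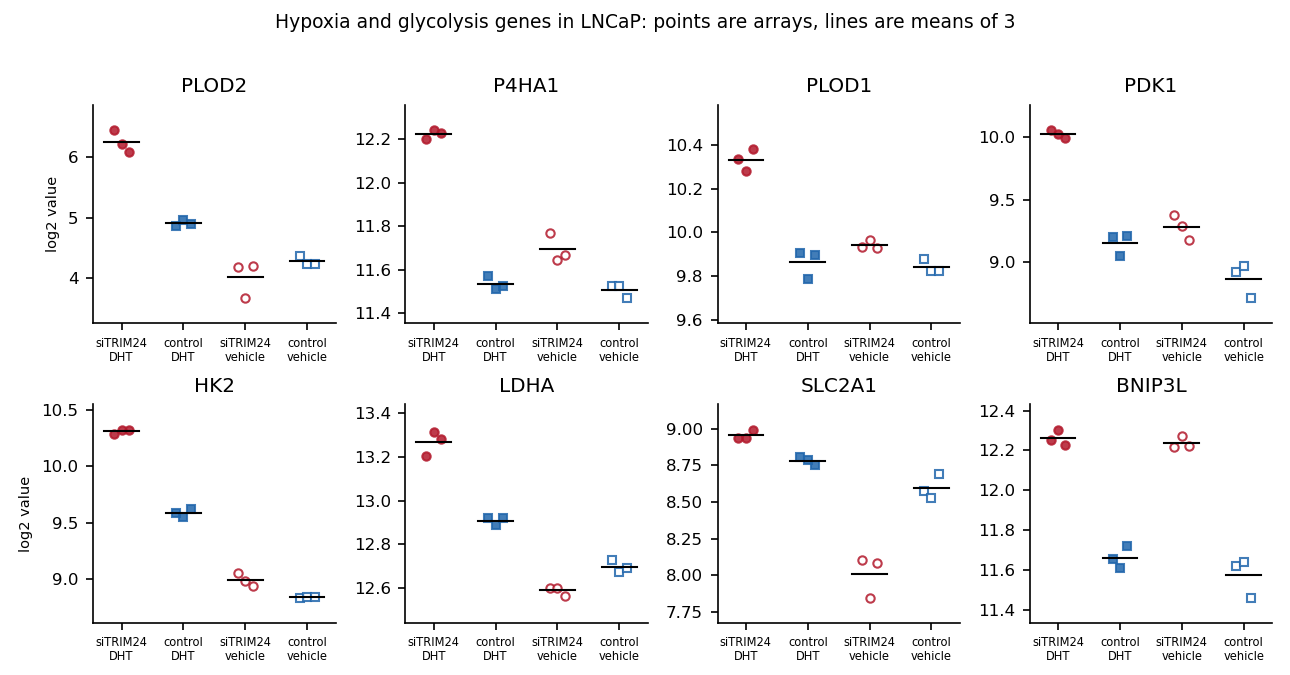
Points are the log2 values of single LNCaP arrays and lines the means of 3, with TRIM24 siRNA in red circles left of control siRNA in blue squares, filled with DHT and open with vehicle. PLOD2, P4HA1, HK2 and LDHA are highest on the 3 arrays with TRIM24 siRNA and DHT, and BNIP3L is higher with TRIM24 siRNA in both settings.

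Genes that androgen turns on did not move as a block. DHT effects are given as background from the control siRNA arrays, where DHT changed 45.7% of the genes (19.4% up and 26.4% down), and that comparison shares the 3 control arrays with DHT with the knockdown comparison. The kallikreins, secreted proteases of the prostate, were led by KLK2, at 10.01, 9.97 and 9.93 with TRIM24 siRNA against 10.48, 10.44 and 10.61 with control siRNA, a log2 fold change of -0.54 ± 0.07 (adjusted p = 7.02e-06) without overlap. DHT had raised KLK2 by 4.95. KLK3, prostate-specific antigen, read 14.08, 14.06 and 14.05 against 14.07, 14.16 and 14.12 in control cells, so the groups overlapped (-0.05 ± 0.13, adjusted p = 0.808). KLK4 was at -0.06 ± 0.06, and was called lower with its most variable probe set (-0.23, adjusted p = 0.0372) and with its probe sets averaged (-0.16, adjusted p = 0.0138).

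Of 15 tested androgen-induced regulators 5 fell and 3 rose, shares of the list against 20.8% and 19.4% of all genes. ELL2, an elongation factor of RNA polymerase II, read 10.97, 10.93 and 10.88 on the TRIM24 siRNA arrays and 11.89, 11.95 and 12.10 on the control arrays, a log2 fold change of -1.06 ± 0.08 (adjusted p = 4.37e-08) where DHT had raised it by 1.63. ATAD2, a bromodomain ATPase of chromatin, fell by 0.47, and ZBTB10, a zinc finger repressor, by 0.35. TSC22D3, the steroid-induced leucine zipper protein, fell by 0.42 and TRIB1, a pseudokinase, by 0.14. ERN1, the stress sensor IRE1, rose by 0.65 ± 0.05, SGK1, a steroid-induced kinase, by 0.48 ± 0.04 and NDRG1, a stress gene, by 0.29. The call of TRIB1 was lost without TRIM24 siRNA replicate 1 or 3 or control replicate 1 or 3 (adjusted p = 0.0556 to 0.0884) and with the RNA quality covariate (0.108). ERN1 did not pass with its most variable probe set (0.04, adjusted p = 0.687), and averaging put ZBTB10 at -0.21, ERN1 at 0.31 and TSC22D3 at -0.18 and ended the call of TRIB1 (-0.04, adjusted p = 0.682). SGK1 and ZBTB10 differed between hormone settings: SGK1 fell by 0.40 and ZBTB10 rose by 0.27 with vehicle, and the differences were 0.89 ± 0.06 and -0.62 ± 0.09 (adjusted p = 1.67e-06 and 0.00036).

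The androgen-induced membrane and secretory genes went both ways, with 8 of 19 higher, 5 lower and a median of 0.09. SLC45A3, the prostate antigen prostein, read 11.03, 11.04 and 10.95 with TRIM24 siRNA and 11.92, 11.93 and 12.15 with control siRNA, a log2 fold change of -0.99 ± 0.06 (adjusted p = 9.79e-10) to 50.2% of the control signal. C1orf116 fell by 0.57 ± 0.05, STEAP4, a metalloreductase, by 0.38 ± 0.12, KCNMA1, a potassium channel, by 0.14, and STEAP2 by 0.12. ORM1, the acute phase protein orosomucoid, read 9.39, 9.39 and 9.42 against 8.49, 8.51 and 8.52 in control cells, a rise of 0.89 ± 0.07 (adjusted p = 2.19e-08). TMPRSS2, the androgen-driven surface protease, read 12.49, 12.51 and 12.56 against 12.24, 12.22 and 12.28 in control cells, a rise of 0.27 ± 0.03. Neither gene overlapped. SLC26A2, a sulfate transporter, rose by 0.61, PTGER4, a prostaglandin receptor, by 0.90 (0.44 when averaged) and SLC38A4, an amino acid transporter, by 0.47. STEAP4 and SLC38A4 missed the threshold with the RNA quality covariate (adjusted p = 0.0891 and 0.058), and STEAP4 also without TRIM24 siRNA replicate 2 or control replicate 1 or 3 (0.0695, 0.0821 and 0.0581). KCNMA1 missed it without TRIM24 siRNA replicate 1 or control replicate 3 (0.0649 and 0.0564), and STEAP2 with the covariate (0.219). KCNMA1 was at -0.30 with the covariate and at -0.22 with its most variable probe set. SLC45A3 was at -1.69 with vehicle, a difference of 0.70 ± 0.08 that was 0.02 when its probe sets were averaged (adjusted p = 0.94).

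Of 16 androgen-induced genes of metabolism and cell maintenance 8 fell, 1 rose and the median was -0.12. ELOVL7, which lengthens fatty acids, read 11.12, 11.07 and 11.11 with TRIM24 siRNA and 11.75, 11.79 and 11.92 with control siRNA, a log2 fold change of -0.72 ± 0.04 (adjusted p = 3.26e-09) without overlap. MALT1, a protease of NF-kB signalling, fell by 0.71 ± 0.08 (-1.11 with its most variable probe set) and HSD17B4, an enzyme of peroxisomal oxidation, by 0.27 ± 0.03 (-0.17 when averaged). FASN, fatty acid synthase, was the member that rose, by 0.26 ± 0.05, a call lost with the RNA quality covariate (adjusted p = 0.378); averaging put it at 0.10. Of 11 chaperones of steroid receptors 4 fell and none rose. FKBP5, an immunophilin that DHT had raised by 3.46, lay between 12.98 and 13.02 on the 3 TRIM24 siRNA arrays and between 13.17 and 13.20 on the 3 control arrays. Its log2 fold change of -0.18 ± 0.04 (adjusted p = 0.00243), with no overlap, was -0.06 with the RNA quality covariate (adjusted p = 0.649). BAG1, DNAJA1 and FKBP4 fell by 0.26, 0.14 and 0.09, and all 3 missed the threshold with the covariate (0.224, 0.0556 and 0.38), FKBP4 also without TRIM24 siRNA replicate 2 (0.0574), with its most variable probe set (-0.10, adjusted p = 0.131) and with its probe sets averaged (-0.01, adjusted p = 0.845). With probe sets averaged FKBP5 was at -0.28 and DNAJA1 at -0.23, and with the most variable one FKBP5 was at -0.34 and BAG1 at -0.47.

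**Figure D4:**
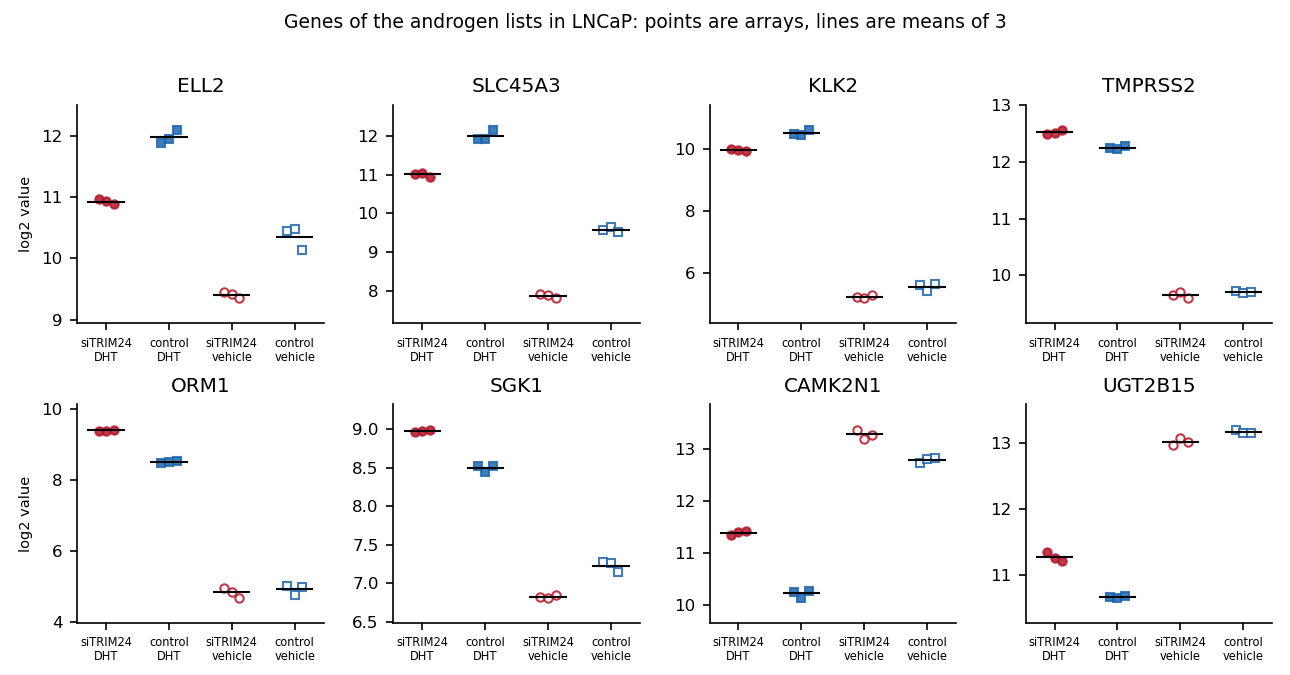
Points are the log2 values of single LNCaP arrays and lines the means of 3, with TRIM24 siRNA in red circles left of control siRNA in blue squares, filled with DHT and open with vehicle. ELL2, SLC45A3 and KLK2 are lower, and TMPRSS2, ORM1, SGK1, CAMK2N1 and UGT2B15 higher, with TRIM24 siRNA than with control siRNA in DHT.

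Of 19 tested genes listed as turned off by androgen 8 rose and 3 fell, with a median of 0.14. In these control cells DHT lowered 13 of the 19 and raised 3. CAMK2N1, an inhibitor of CaM kinase II, read 11.34, 11.40 and 11.41 with TRIM24 siRNA and 10.26, 10.15 and 10.28 with control siRNA. The effect of DHT alone was -2.55, and with TRIM24 siRNA in DHT it rose by 1.16 ± 0.05 (adjusted p = 2.42e-11) without overlap. UGT2B15, UGT2B17 and UGT2B28 encode enzymes that inactivate androgens by glucuronidation; they are close paralogs, and their probe sets can share signal. UGT2B15 read 11.35, 11.27 and 11.21 against 10.68, 10.66 and 10.70 in control cells, a rise of 0.60 ± 0.04. UGT2B28 rose by 0.60 ± 0.05 and UGT2B17 by 0.44 ± 0.07. With vehicle UGT2B15 fell by 0.14 and UGT2B17 by 0.53, and the differences between the hormone settings were 0.74 ± 0.05 for UGT2B15, 0.97 ± 0.10 for UGT2B17, 0.76 ± 0.07 for UGT2B28 and 0.66 ± 0.07 for CAMK2N1. The last was 0.15 (adjusted p = 0.274) with the most variable CAMK2N1 probe set. OPRK1, the kappa opioid receptor, went against the list at 7.99, 7.87 and 7.78 with TRIM24 siRNA and 8.50, 8.30 and 8.58 with control siRNA, a log2 fold change of -0.58 ± 0.07 (adjusted p = 6.28e-06). PEG3, an imprinted zinc finger gene, and ST6GALNAC1, a sialyltransferase, fell by 0.59 and 0.39, although DHT had raised ST6GALNAC1 by 3.56 in these control cells. SOX9, a progenitor factor, rose by 0.57, and DHT had raised it by 1.74. With the RNA quality covariate UGT2B17, SOX9, PEG3 and ST6GALNAC1 were at 0.34, 0.53, -0.66 and -0.47. All of them missed the threshold in that fit (adjusted p = 0.107, 0.116, 0.0615 and 0.0692), and 3 members of the list were called higher.

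Among 23 cofactors of nuclear hormone receptors 8 fell and 2 rose, against 20.8% and 19.4% of all genes, with a median of 0.01. SMARCA4, the BRG1 ATPase of the SWI/SNF remodelling complexes, read 9.42, 9.38 and 9.34 on the TRIM24 siRNA arrays and 10.64, 10.74 and 10.70 on the control arrays. The log2 fold change of -1.32 ± 0.04 (adjusted p = 1.91e-12) left 40.2% of the control signal, with no overlap. The 6 bright SMARCA4 probe sets lay between -0.80 and -1.38, and averaging all 9 gave -0.77. SMARCA4 was also lower with vehicle (-1.63) and in LNCaP-abl (-1.32). NCOA2, a p160 coactivator, fell by 0.56 ± 0.04 (-0.29 when averaged), GRHL2, an epithelial pioneer factor, by 0.27 ± 0.04, and CTBP1, a corepressor, by 0.24 ± 0.04, a call lost with the RNA quality covariate (adjusted p = 0.0617). The rises were those of PIAS2, a SUMO ligase (0.23, and 0.11 when averaged), and CTBP2, a corepressor (0.11). Both were lost with the covariate (0.586 and 0.405), and CTBP2 without TRIM24 siRNA replicate 1 or 2 or control replicate 1 or 2 (0.053 to 0.0762). Of 18 tested genes of DNA methylation and Polycomb 6 fell and 3 rose, against the same shares of all genes. SUZ12, the core subunit of the Polycomb repressive complex that writes histone methylation, fell by 0.52 ± 0.03, a call lost when its probe sets were averaged (-0.13, adjusted p = 0.0615). JARID2, which guides that complex, rose by 0.57 ± 0.03, and CBX2 and CBX7, readers of the mark, by 0.33 and 0.16. CBX2 was at -0.04 with its most variable probe set and missed the threshold with its probe sets averaged (0.09, adjusted p = 0.0823) and with the covariate (0.182), and CBX7 missed it without TRIM24 siRNA replicate 1 or 2 or control replicate 3 (0.0608 to 0.14) and was at 0.34 with the covariate.

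In growth signalling, 9 of 21 genes of the PI3K and AKT pathway fell and 3 rose, with a median of -0.08. PIK3CB, a catalytic subunit of PI3 kinase, read 9.43, 9.51 and 9.51 with TRIM24 siRNA and 10.08, 10.01 and 10.03 with control siRNA, a log2 fold change of -0.56 ± 0.04 (adjusted p = 9.49e-09; -0.33 when averaged). PIK3R3, a regulatory subunit, fell by 0.40, RICTOR, a subunit of mTORC2, by 0.36, and RHEB, the activator of mTORC1, by 0.31. PHLPP2, the phosphatase that removes an activating phosphate from AKT, rose by 0.21, as did PIK3CD (0.20) and RPTOR (0.17). PIK3CD was at -0.11 with its most variable probe set, and its call was lost with its probe sets averaged (0.04, adjusted p = 0.535) and with the RNA quality covariate (0.0708). RPTOR missed the threshold with the covariate (adjusted p = 0.164) and without TRIM24 siRNA replicate 1 or 2 or control replicate 1 (0.0513 to 0.134). IGFBP3, which binds insulin-like growth factors, read 12.87, 12.82 and 12.88 against 13.68, 13.67 and 13.67 in control cells, a log2 fold change of -0.82 ± 0.03 (adjusted p = 4.31e-12). IGF1R, the receptor, fell by 0.54 ± 0.06 (-0.19 when averaged), and NRP1, a coreceptor of VEGF, rose by 0.76 ± 0.04 (0.28 when averaged). MYC, the growth-promoting transcription factor, read 11.55, 11.53 and 11.57 with TRIM24 siRNA and 10.97, 10.92 and 10.88 with control siRNA, a rise of 0.62 ± 0.04 (adjusted p = 6.78e-09), and JUN rose by 0.33 (0.64 with its most variable probe set). Neither IGFBP3 nor MYC overlapped. Of 17 ribosome biogenesis genes linked to MYC 6 rose, RRP12 and NCL fell by 0.20 and 0.13, and the median was 0.11. The call of NCL was lost without any 1 array other than control replicate 2 (0.0548 to 0.124), and both NCL and RRP12 missed the threshold with the covariate (0.488 and 0.51) and with probe sets averaged (-0.06 and -0.09, adjusted p = 0.275 and 0.138).

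Of 24 genes of TGF-beta and BMP signalling 8 fell and 4 rose, against 20.8% and 19.4% of all genes, with a median of -0.07. The receptors split: BMPR1B, a BMP receptor, rose by 0.68 ± 0.06 and TGFBR1 by 0.49 ± 0.06 (0.27 when averaged), while TGFBR2 and TGFBR3 fell by 0.49 and 0.48. TGFB2, a ligand, and SMAD5, a signal transducer of BMP, rose by 0.58 and 0.38. TGFB2 and TGFBR2 missed the threshold with the RNA quality covariate (adjusted p = 0.36 and 0.157), and TGFBR2 was at -0.29 without control replicate 1. Among p53 targets 11 of 21 fell and 1 rose, with a median of -0.16. TP53INP1, which promotes cell death and autophagy, read 10.16, 10.16 and 10.17 with TRIM24 siRNA and 11.30, 11.34 and 11.33 with control siRNA, a log2 fold change of -1.16 ± 0.04 (adjusted p = 1.91e-12; -0.44 when averaged) without overlap. TP53I3, an oxidoreductase, fell by 0.56 and PLK2, a stress-induced kinase, by 0.51, with TP53I3 missing the threshold with the RNA quality covariate (adjusted p = 0.0614). TNFRSF10B, a death receptor, was the member that rose, by 0.46 ± 0.03 (0.26 when averaged and 0.28 with its most variable probe set).

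Transport and lipid metabolism held some of the largest changes in both directions. Of 18 amino acid transporters 9 rose and 5 fell, with a median of 0.21. SLC7A2, a carrier of arginine and lysine, had the largest rise of all tested genes, at 9.35, 9.37 and 9.41 with TRIM24 siRNA against 7.39, 7.43 and 7.51 with control siRNA. SLC7A11, the cystine carrier that feeds glutathione synthesis, read 10.37, 10.12 and 10.22 against 11.69, 11.71 and 11.70 in control cells. SLC7A2 rose by 1.93 ± 0.04 to 382.3% of the control signal and SLC7A11 changed by -1.47 ± 0.07 to 36.2% (adjusted p = 2.66e-14 and 2.97e-10), and neither overlapped. SLC36A1, a lysosomal exporter, fell by 0.93, and its relative SLC36A4 rose by 0.68, as did SLC38A1, a glutamine carrier, by 0.62. SLC7A5, SLC7A8 and SLC3A2, the carriers of large neutral amino acids and their shared heavy chain, fell by 0.20, 0.17 and 0.12. These 3 calls were lost with the RNA quality covariate (adjusted p = 0.214, 0.0596 and 0.711), SLC7A5 without TRIM24 siRNA replicate 1 or 2 or control replicate 1 or 3 (0.0568 to 0.132), SLC3A2 without TRIM24 siRNA replicate 2 or control replicate 3 (0.0672 and 0.0573), and SLC7A8 with its most variable probe set or its probe sets averaged (0.218 and 0.0849). Of 21 genes of cholesterol synthesis and uptake 8 rose and 4 fell: INSIG2, which retains the sterol sensor in the ER, rose by 0.72, SREBF1, the lipogenic transcription factor, by 0.63, and SQLE, squalene epoxidase, fell by 0.74 ± 0.04, as did IDI1, FDPS and SC5D by 0.20, 0.16 and 0.16. The acyl-CoA synthetases split, with ACSL4, which prefers arachidonate, at 6.42, 6.19 and 6.29 against 4.91, 4.95 and 4.99 in control cells (a rise of 1.35 ± 0.10 over a control mean of 4.95, below the filter value) and ACSL1 at 10.89, 10.92 and 10.89 against 11.80, 11.79 and 11.92 (a log2 fold change of -0.94 ± 0.06). IDI1 was at 0.08 with its most variable probe set, and IDI1 and SC5D missed the threshold with the covariate (0.0734 and 0.103) and with probe sets averaged (0.226 for both). FDPS was at -0.24 with the covariate. Averaging probe sets put SLC7A2 at 0.70 and SLC36A1 at -0.40.

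In the secretory pathway 11 of 21 genes of the unfolded protein response and ER folding rose and 4 fell, with a median of 0.08. EIF2AK3, the stress sensor PERK, read 11.46, 11.46 and 11.43 with TRIM24 siRNA and 10.68, 10.67 and 10.73 with control siRNA, a rise of 0.76 ± 0.05 (adjusted p = 3.5e-09; 0.41 when averaged). MANF, an ER-resident survival factor, rose by 0.49 and PDIA6, a disulfide isomerase, by 0.23 (0.14 when averaged). PDIA4, another isomerase, fell by 0.84 ± 0.04, and DNAJB9, EDEM1 and DNAJB11 by 0.39, 0.26 and 0.13. With the RNA quality covariate 6 members of the list were called higher, and DNAJB11 missed the threshold (adjusted p = 0.33). SPCS3, a subunit of the signal peptidase, read 9.88, 9.80 and 9.77 against 11.34, 11.29 and 11.32 in control cells, which left 35.3% of the control signal (a log2 fold change of -1.50 ± 0.04, adjusted p = 1.08e-12; -0.46 when averaged). SRP68, of the signal recognition particle, fell by 0.62, while SSR3 and SEC61A1, of the translocon, rose by 0.37 and 0.31 (SSR3 by 0.65 with its most variable probe set). GOLT1B, a protein of Golgi transport, read 10.88, 10.81 and 10.83 with TRIM24 siRNA and 9.22, 9.09 and 9.26 with control siRNA, a rise of 1.65 ± 0.05 (1.08 when averaged), and SAR1B, the GTPase that starts COPII vesicles, rose by 0.70. None of EIF2AK3, SPCS3 and GOLT1B overlapped. In autophagy and the lysosome 10 of 23 genes rose and 6 fell. LAMP1, a glycoprotein of the lysosomal membrane, rose by 0.77 ± 0.03, GABARAPL1, an autophagosome protein, by 0.62 ± 0.07, and BECN1, which starts autophagosomes, fell by 0.57 ± 0.05 (-0.38 when averaged).

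Of 28 interferon-induced effector genes 13 rose, 1 fell and the median was 0.11. OASL, an antiviral oligoadenylate synthetase-like protein, read 11.09, 11.12 and 11.18 with TRIM24 siRNA and 10.84, 10.78 and 10.71 with control siRNA. IFIT2, which binds viral RNA, read 12.10, 12.13 and 12.13 against 11.79, 11.67 and 11.89 in control cells. Neither overlapped, and the rises were 0.35 ± 0.04 and 0.34 ± 0.05 (adjusted p = 8.51e-06 and 0.000106), against 1.01 and 1.05 with vehicle. The differences between the hormone settings were -0.66 ± 0.06 for OASL, -0.71 ± 0.08 for IFIT2 and -0.61 ± 0.08 for RSAD2, the antiviral viperin. In that difference 13 of the 28 genes were called lower and none higher, against 5.7% and 5.38% of all genes. IFIT5 was the member that fell, by 0.19, a call lost without TRIM24 siRNA replicate 1 or 3 or control replicate 1 or 3 (adjusted p = 0.0654 to 0.142). Under the covariate 4 effectors were called higher, and IFIT2 (adjusted p = 0.08) and IFIT5 (0.086) missed the threshold. Of 24 sensors and signalling genes of the pathway 8 fell and 2 rose: MAVS, the mitochondrial adaptor of RNA sensors, fell by 0.82 ± 0.04 and EIF2AK2, the RNA-activated kinase PKR, by 0.36 ± 0.04 (-0.59 when averaged and -1.01 with its most variable probe set), while IRF9 and IFNGR1 rose by 0.27 each. Of 11 antigen processing genes 5 rose and none fell, led by ERAP1, the ER aminopeptidase that trims peptides, at 0.60 ± 0.06 (0.13 when averaged). Of 21 measured NF-kB targets and chemokines 15 were tested, of which 4 rose, 1 fell and 10 did not pass, with a median of 0.09. Of all genes 19.4% rose and 20.8% fell. The member that fell was TNFSF4, the OX40 ligand. It read 7.38, 7.33 and 7.30 against 8.96, 8.84 and 8.89 in control cells, a log2 fold change of -1.56 ± 0.06 (adjusted p = 2.82e-11). The chemokines CCL20 and CXCL8 rose by 1.22 ± 0.10 and 0.61 ± 0.11.

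The 12 largest rises and 12 largest falls among genes whose arrays did not overlap hold further genes of adhesion, trafficking and signalling. MPZL3, a membrane protein, read 9.66, 9.67 and 9.73 with TRIM24 siRNA and 7.86, 7.88 and 7.84 with control siRNA (1.83 ± 0.04). LAMC1, the laminin gamma chain of basement membranes, read 12.79, 12.80 and 12.75 against 11.32, 11.39 and 11.37 in control cells (1.42 ± 0.03). DPY19L1, a mannosyltransferase, rose by 1.54, POLR3G, a subunit of RNA polymerase III, by 1.40, CLDN12, a claudin of tight junctions, by 1.28, and NPPC, C-type natriuretic peptide, by 1.27. PHACTR2, which binds actin and a phosphatase, had the second largest fall, at 8.62, 8.63 and 8.64 against 10.72, 10.65 and 10.74 in control cells (-2.07 ± 0.08, adjusted p = 7.58e-12). SCARB2, a lysosomal membrane protein, read 11.56, 11.57 and 11.58 against 13.02, 13.06 and 12.97 in control cells (-1.45 ± 0.03). TIMP2, an inhibitor of matrix metalloproteinases, fell by 1.55, ZBTB37 by 1.52, DIXDC1, a protein of WNT signalling, fell by 1.50, PXYLP1, a phosphatase of glycosaminoglycan synthesis, fell by 1.47, and NAALADL2 fell by 1.44. Several of these have dim further probe sets, and averaging put MPZL3 at 0.76, LAMC1 at 0.78, SCARB2 at -0.81, TIMP2 at -0.91, ZBTB37 at -0.63, DIXDC1 at -0.57 and PXYLP1 at -0.72. With vehicle PHACTR2 was at -1.85, SCARB2 at -1.66 and TIMP2 at -1.58, and MPZL3 and LAMC1 rose by 1.65 and 1.62.

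**Figure D5:**
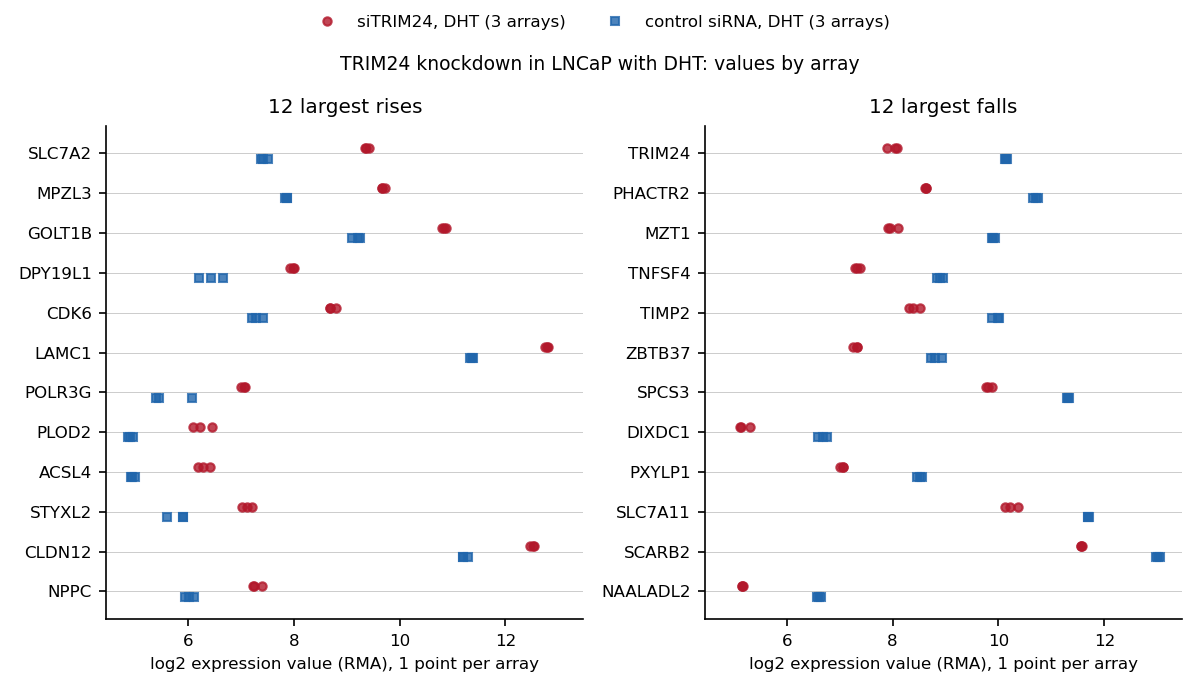
Each row is 1 gene and each point 1 LNCaP array with DHT (log2 value), TRIM24 siRNA as red circles and control siRNA as blue squares, for the 12 largest rises (left) and the 12 largest falls (right). The groups are separate in every row, as the choice of genes requires, and the control arrays of POLR3G span 5.40 to 6.08.

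The knockdown change differed between DHT and vehicle for 1507 genes, 11.1% of those tested, with 732 more positive and 775 more negative with DHT. Among genes called in both that difference and the knockdown with DHT, NPPC had a log2 fold change of 1.27 with DHT and -0.14 with vehicle, a difference of 1.41 ± 0.09 (adjusted p = 1.42e-06). STYXL2, a pseudophosphatase, was at 1.31 with DHT and 0.16 with vehicle (1.15 ± 0.14), ORM1 at 0.89 and -0.09 (0.99 ± 0.09) and PHLDB2, a protein of cell adhesion, at 0.81 and -0.23 (1.04 ± 0.19). In the other direction TCIM, a regulator of WNT signalling, was at -0.64 with DHT and 0.54 with vehicle (-1.19 ± 0.13), CAMK2D, a CaM kinase II subunit, at -0.95 and -0.01 (-0.95 ± 0.07), and CXCL8 at 0.61 and 1.51 (-0.90 ± 0.15). The fall of TCIM with DHT missed the threshold with the RNA quality covariate (adjusted p = 0.115). Cell cycle genes showed smaller differences: CDC25A was at -0.92 with DHT and -0.29 with vehicle (-0.63 ± 0.09), PBK at -1.37 and -0.88 (-0.49 ± 0.07) and DLGAP5 at -1.37 and -0.93 (-0.44 ± 0.10). With vehicle 5 of 11 kinesins, 11 of 19 mitotic kinases, 13 of 25 kinetochore and 10 of 24 spindle genes fell. Rises numbered 0, 1, 6 and 5. Of the anaphase promoting complex 7 of 16 fell and 1 rose, and of the cyclins 8 of 13 fell and 2 rose. Of all genes 18% fell and 20.5% rose. The difference was called lower for 2 kinesins, 6 mitotic kinases, 2 kinetochore, 1 anaphase promoting complex, 6 spindle genes and 0 cyclins. None were higher (all genes: 5.7% lower, 5.38% higher). KLK2 and KLK3 did not pass in this difference (-0.21 ± 0.09 and 0.41 ± 0.19, adjusted p = 0.163 and 0.176). Both passed with their probe sets averaged (-0.28 and 0.36, adjusted p = 0.0246 and 0.0208) and with the most variable one (-0.60 and 0.44, 0.0154 and 0.0365), and KLK3 also in a fit to the 12 LNCaP arrays (adjusted p = 0.00368).

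In LNCaP-abl the knockdown changed 45.6% of the genes, 16.7% up and 28.8% down. Between the knockdown in LNCaP with DHT and in LNCaP-abl 2800 genes differed, 20.6% of those tested. The 2 settings differ in cell line and in hormone, so these cannot be told apart. For 22 of 25 kinetochore genes, 16 of 19 mitotic kinases and 10 of 11 kinesins the change was more negative in LNCaP-abl, against 14.9% of all genes. TTK, the spindle checkpoint kinase, was at -0.51 in LNCaP with DHT and -2.08 in LNCaP-abl (difference 1.57 ± 0.12, adjusted p = 4.9e-07), and BRIP1, a helicase of DNA repair, at -0.45 and -2.05 (1.60 ± 0.11). With the RNA quality covariate the falls of TTK and BRIP1 in LNCaP with DHT missed the threshold (adjusted p = 0.0963 and 0.067). CDK6 rose by 1.42 in LNCaP with DHT and was at 0.00 in LNCaP-abl, a difference of 1.42 ± 0.12 (0.65 when averaged). CXCR4, a chemokine receptor, fell by 1.22 ± 0.07 in LNCaP with DHT and was at 0.14 in LNCaP-abl (-1.36 ± 0.10), and CNKSR2, a signalling scaffold, fell by 1.23 ± 0.11 and was at 0.04 (-1.26 ± 0.15). The differences of HK2 and LDHA were 1.13 ± 0.07 and 0.72 ± 0.05.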

How the data were processed

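RNA of 18 samples in 6 groups of 3 was measured on one-colour Affymetrix arrays. The values the authors deposited are on the log2 scale, 1 per probe set, and the submitters' processing notes name RMA; its version is not given in the sources used here. RMA corrects background, quantile-normalizes the arrays and summarises probes, so a shift shared by all genes is removed before deposit, and arrays give no counts or depth.

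Of 54675 probe sets 41097 named 1 gene symbol, 1801 several and 11777 none; only the first were used. Each of 19775 genes was represented by its brightest probe set, and 13607 genes whose third-highest value reached 5.88 were tested. The 18 arrays were fitted by group means with limma 3.58.1 in R 4.3.3 (12 residual degrees of freedom, empirical Bayes variances), with Benjamini-Hochberg adjustment over the 13607 genes and a threshold of 0.05. The procedure was tested on simulated data. Differences between knockdown effects were interaction contrasts of the same fit. Python 3.11.15 was used for promoters and figures.

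The genes named are the TIF1 family, the 12 largest rises and falls without overlapping arrays, up to 4 members of each of 53 lists by adjusted p, a few fixed genes and the 5 largest differences in each direction per interaction contrast; any other gene was chosen after its values were seen. The comparison, the lists and the genes were chosen with earlier results of these data known. The motifs of the hypoxia promoters were chosen after the list's values were seen. Lists are described by counts and medians. Alternatives varied the filter, the probe set, the scaling, the arrays fitted, the variance model, the threshold, array weights, the RNA quality covariate and the replicate block, and left out each array in turn.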

Additional observations from a re-analysis of the deposited data

Results flagged for a closer look

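Each of the following differences between 2 knockdown effects passed limma's interaction test (adjusted p under 0.05, n = 3 arrays per group). For the change with DHT minus that with vehicle in LNCaP, positive values were 1.61 for PLOD2, 1.41 for NPPC, 1.15 for STYXL2, 1.04 for PHLDB2, 0.99 for ORM1, 0.97 for UGT2B17, 0.89 for SGK1, 0.76 for UGT2B28, 0.74 for UGT2B15, 0.70 for SLC45A3, 0.66 for CAMK2N1, 0.57 for HK2, 0.50 for P4HA1, 0.47 for LDHA, 0.46 for PDK1 and 0.23 for P4HA2, on the log2 scale. Negative values were -1.19 for TCIM, -0.95 for CAMK2D, -0.90 for CXCL8, -0.71 for IFIT2, -0.66 for OASL, -0.63 for CDC25A, -0.62 for ZBTB10, -0.61 for RSAD2, -0.49 for PBK and -0.44 for DLGAP5. For the change in LNCaP with DHT minus that in LNCaP-abl with vehicle the values were 1.60 for BRIP1, 1.57 for TTK, 1.42 for CDK6, 1.13 for HK2 and 0.72 for LDHA, and -1.36 for CXCR4 and -1.26 for CNKSR2.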

How the results depend on the processing

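The RNA quality covariate left 2669 genes called, 1195 higher and 1474 lower, with 3 kinesins and 5 replication fork and nucleotide genes lower, and 6 glycolysis, 3 androgen-repressed, 4 interferon effector and 6 unfolded protein response genes higher. Averaged probe sets left 50 genes called and changed at least 2-fold. Glycolysis had 7 members higher with median centring and 7 at an adjusted p under 0.01. The difference between DHT and vehicle was called for 993 genes with no low-value filter and 652 at an adjusted p under 0.01, and that between cell lines for 1586 at that threshold. With another probe set TRIM33 was at 0.43, CBX2 at -0.0404, PIK3CD at -0.11 and IDI1 at 0.0793 (most variable), and TUBGCP3 at -0.0172 (averaged); the cause was not tested. Of called genes 48.35% were higher, 44.29% with median centring and 51.26% with quantile normalization. Deviations from the group means correlated at -0.0145, 0.0837 and -0.0285 between DHT arrays of equal replicate number. Between unequal numbers they correlated at -0.0542 to 0.0664. With 3 arrays per group these values cannot settle whether the replicate numbers pair the samples. With a replicate block 5388 genes were called.

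Without each array in turn 4853 to 5123 genes were called, 2286 to 2515 higher and 2456 to 2780 lower, and 100 to 121 at least 2-fold. The interaction counts were 1036 to 1599 for DHT and 2361 to 2736 for cell line. Members lower were 6 to 8 kinesins, 12 to 12 mitotic kinases, 15 to 17 kinetochore, 14 to 15 spindle, 8 to 8 cyclin, 8 to 10 replication fork, 8 to 8 androgen-induced metabolic, 10 to 11 p53 and 8 to 9 PI3K genes. Members higher were 13 to 13 hypoxia, 7 to 10 glycolysis, 7 to 8 androgen-induced membrane, 6 to 8 androgen-repressed, 10 to 12 interferon effector, 8 to 10 unfolded protein response and 9 to 9 amino acid transporter genes. Dim probe sets and 3 arrays per group limit the precision of small changes.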

Other observations

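Respiratory complex I, which feeds electrons into the respiratory chain, had 8 of 22 tested subunits and assembly factors lower and 3 higher with TRIM24 siRNA in DHT, with a median log2 fold change of -0.05. The proteasome, which degrades ubiquitinated proteins, had 7 of 23 lower and 5 higher, with a median of -0.03. Of 15 tested laminins and integrins 6 rose and none fell by limma's test, with a median of 0.10, and of 13 genes of polyamine metabolism 5 fell and none rose, with a median of -0.08. In the same comparison 20.8% of all genes were called lower and 19.4% higher.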
